A study of Mus musculus with 18 samples.

Results

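Condensin I and II are represented by 8 genes, taken by symbol from the 27874 genes of the deposited FPKM table. Smc2 and Smc4 belong to both complexes, Ncapd2, Ncapg and Ncaph to condensin I, and Ncapd3, Ncapg2 and Ncaph2 to condensin II. All 8 were found, and 7 of them reached 1 FPKM in 3 or more of the 18 libraries, the condition met by the 10320 genes tested. Ncapd2 did so in 1 library and was not tested. FPKM scales the reads of a gene to its exon length and to the depth of the library. The length used joins all annotated exons of a gene and exceeded the longest protein-coding transcript unevenly. The 2 lengths were 9939 and 4684 bases for Ncapg2, 7066 and 3703 for Ncapg, and 5478 and 5404 for Smc2. Levels of different genes therefore compare only roughly. FPKM is a share of the library and not an amount per oocyte. Words such as held, rose and fell refer to this share, which also depends on the other mRNAs. The libraries came from oocytes of wild-type mice (WT) and of Lsm14b-/- mice (KO), which lack an RNA-binding protein of stored maternal mRNA. Each pooled 15 oocytes, and 3 replicates were made per genotype at the germinal vesicle stage (GV), in metaphase I (MI) and at a time denoted MII, which was 14 h after hCG, the gonadotropin used to trigger ovulation. The labels give neither the allele design, the age or strain of the mice, nor whether replicates came from separate mice, so p-values measure the spread between these libraries, which may be technical. Whether every KO oocyte labelled MII had passed metaphase I is not stated.

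Condensins are ring-shaped ATPases that loop chromatin and give metaphase chromosomes their compact, rod-like axis. SMC2 and SMC4 form the ATPase pair, a kleisin (CAP-H or CAP-H2) closes the ring, and 2 HEAT-repeat subunits (CAP-D2 and CAP-G, or CAP-D3 and CAP-G2) bind DNA and control the motor. Condensin II is largely nuclear and acts from early in division, whereas condensin I reaches the chromosomes once the nuclear envelope breaks down. In oocytes both localise to chromosomes during the meiotic divisions, and condensin II is needed for rigid bivalents. Because a fully grown oocyte transcribes little, its mRNA levels during maturation follow storage, poly(A) tail change and decay. The cDNA here was primed with oligo(dT), so tail length may affect a measured level. The part of tail length in the results was not tested, and in these pools fewer cells of a type and less RNA per cell cannot be told apart.

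Reads recovered per library numbered from 14227763 to 17183681. Lsm14b stood at 2.04 to 11.2 FPKM in the 9 WT libraries and at 0 to 0.234 FPKM in the 9 KO libraries, in the direction of the labels. KO GV replicate 2 stood apart on the first principal component of all tested genes, at -62.9 against -49.8 to -40.8 in the other GV libraries. On the second component KO GV replicate 3 stood at -2.16, between the other KO GV libraries (20.5 and 43.5) and the WT GV libraries (-46.2 to -34.9). All 10 oocyte markers reached 1 FPKM in every group, with Ddx4 at 8.58 to 30.3 FPKM and Gdf9 at 1461 to 5088. Their sum was lower at MII than at GV. It was 22389 to 28458 FPKM in WT GV and 10756 to 13142 in WT MII, and 20590 to 25337 in KO GV and 11805 to 12169 in KO MII. The 16 cumulus and granulosa markers summed to 5.36 to 8.91 FPKM in WT GV, 9.02 to 11.97 in KO GV, 6.87 to 10.97 in WT MI, 7.84 to 8.82 in KO MI, 8.82 to 10.7 in WT MII and 6.37 to 9.502 in KO MII, with 2 to 5 of the 16 reaching 1 FPKM in a group. Amh and Foxl2 were at 0 in 15 and 17 of 18 libraries, whereas Cyp19a1 (1.89 to 6.09 FPKM), Nr5a2 (0.845 to 4.80) and Kitl (0.606 to 3.51) were found in every library. The sums of the genotypes did not overlap at GV, and their part in the GV differences was not tested. The 6 blood markers found summed to 0.507 to 7.29 FPKM in the groups other than WT MI and to 0.928 to 29.8 in WT MI, where 1 library held Lyz2 at 27.5. The part of these markers in the results was not tested.

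The annotated 3′ ends of the condensin mRNAs are shown because the tail is added there and its length is controlled there during maturation. The last 80 bases of the longest protein-coding transcript (GENCODE vM21, mm10) were searched for the poly(A) signals AATAAA and ATTAAA and for the cytoplasmic polyadenylation elements (CPEs) TTTTAT and TTTTAAT, to which CPEB proteins bind. The search covered the mRNA strand only. A CPE match was present in 4 of 8 condensin mRNAs, against 17.5% of 8236 tested genes with a 3′ UTR of at least 80 bases, and a poly(A) signal in 6 of 8, against 81.9%. Both condensin counts include Ncapd2, which was not tested and is therefore not among the 8236 genes. Oocytes may use other ends than the annotated ones, and a match is a description of the letters, not a site shown to act. In the following runs of 30 bases, read 5′ to 3′ from the plus strand of Smc2, Ncapg and Ncapd3 and the minus strand of Ncapd2 and Ncaph, capitals mark a CPE or a poly(A) signal.
Ncapg: atTTTTATtgtgcttctgcttcATTAAAtt
Smc2: taTTTTATatatagtttcactcatattttt
Ncapd3: atTTTTATTAAAagaggtgtacagtctttc
Ncapd2: taatgAATAAAtgtTTTTATagacttttaa
Ncaph: gtaagtgtatttaataccccaaAATAAAac
The CPE of Ncapg shown begins 43 bases before the transcript end and a second begins at 76 bases, both ahead of the signal at 23. The CPE of Smc2 begins at 62 bases, and its ATTAAA at 26 lies after the end of the run shown. In Ncapd3 the CPE at 59 bases overlaps an ATTAAA, and a separate AATAAA begins at 20. In Ncapd2 the CPE lies behind the AATAAA, at 16 bases. Ncaph and Ncaph2 had an AATAAA and no CPE in this window. Smc4, whose annotated 3′ UTR has 97 bases, and Ncapg2 had no match of either kind.

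The condensin mRNAs spanned a wide range of levels. In WT GV oocytes Smc4 was highest at 177.0 ± 14.2 FPKM (SD, n = 3), followed by Ncapg at 93.8 ± 10.95 and Ncaph at 29.2 ± 2.11. Ncapg2, Ncapd3 and Smc2 came next, at 7.43 ± 0.701, 5.64 ± 2.02 and 5.20 ± 1.61 FPKM, and each of these neighbours overlapped the next. Ncaph2 stood at 2.65 ± 0.602 and Ncapd2 last at 0.344 ± 0.163. The condensin I genes Ncapg and Ncaph thus lay above every condensin II gene in each of the 18 libraries, while Ncapd2 reached at most 1.46 FPKM. The first 3 places were held by Smc4, Ncapg and Ncaph in every group, but in KO MI and KO MII the ranges of Ncapg and Ncaph overlapped.

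**Figure D1:**
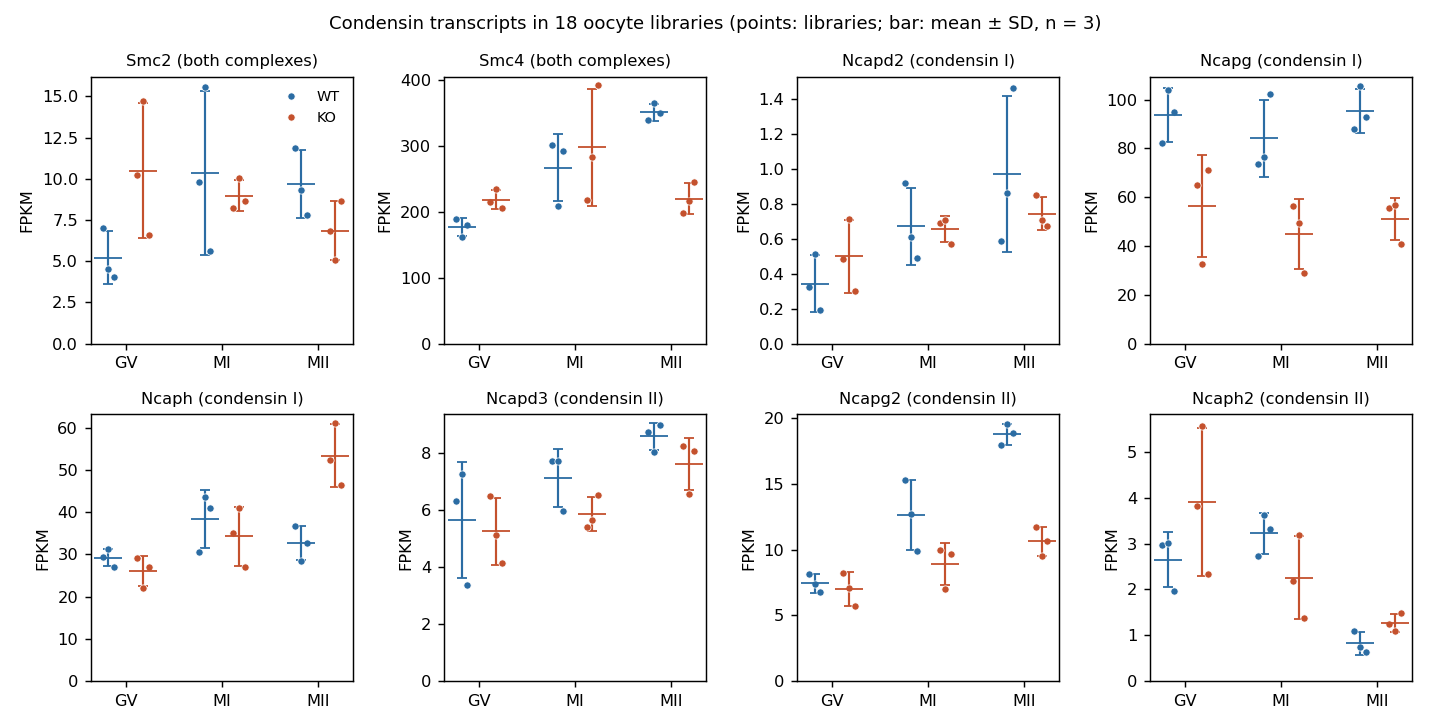
FPKM of the 8 condensin genes (vertical axes, linear, each from 0) in WT and KO oocytes at GV, MI and MII; points are libraries and bars mean ± SD of 3. Ncapg is lower in every KO library than in every WT library of the same stage. Smc4 separates at GV, where KO is higher, and at MII, where KO is lower. Ncapg2 is lower in every KO library at MII, and Ncaph is higher in KO at MII only.

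At 14 h after hCG, the FPKM of Smc4, Ncapg and Ncapg2 was lower and that of Ncaph higher in KO than in WT oocytes. By limma on log2(FPKM + 1), 4 of 7 condensin genes tested (57.1%) passed an adjusted p of 0.05, 3 lower and 1 higher in KO, against 28.6% of all genes tested (13.8% lower and 14.9% higher). The groups of these 4 genes did not overlap, as was so for 50.6% of all genes tested. The median log2 difference of the 7 genes was -0.45, against 0.01 for all genes tested. The calls were close to the threshold: leaving out WT MII replicate 2 or 3 left 1 call, leaving out KO MII replicate 1 or 2 left 2, and median-of-ratios scaling left 2. Ncapg2 was called in all of these fits.

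**Figure D2:**
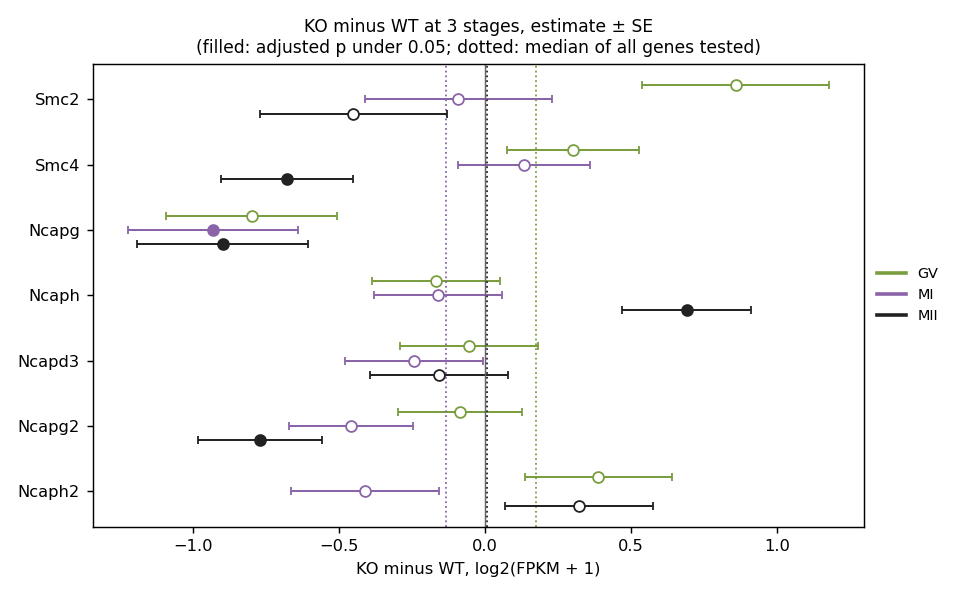
Difference KO minus WT on the log2(FPKM + 1) scale (horizontal axis) for the 7 tested condensin genes at GV, MI and MII, with standard errors; filled symbols passed an adjusted p of 0.05 and dotted lines are the medians of all genes tested. The Ncapg estimates lie between -0.93 and -0.80 at all 3 stages, while Smc4 and Ncapg2 are lowest and Ncaph highest at MII.

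Smc4 (ENSMUSG00000034349, chromosome 3, 69004738 to 69034623 on mm10), the ATPase shared by both complexes, made up 50.5% to 82.6% of the summed FPKM of the 8 genes. In WT it was measured at 189.2, 161.5 and 180.5 FPKM at GV, at 300.7, 208.8 and 292.1 at MI, and at 339.3, 365.1 and 349.7 at MII. In KO it was measured at 214.8, 234.0 and 205.8 FPKM at GV, at 217.9, 283.1 and 393.0 at MI, and at 198.0, 217.0 and 245.6 at MII. Every KO library was above every WT library at GV, the genotypes overlapped at MI, and every KO library was below every WT library at MII. The GV difference did not pass (log2 0.30, SE 0.23, adjusted p = 0.338), and with median-of-ratios scaling it was 0.0024 (adjusted p = 0.996). From GV to MII Smc4 rose in WT (log2 0.99, SE 0.23, adjusted p = 0.00121), whereas in KO the difference was 0.01 with an adjusted p of 0.979. The KO level at MII was 0.627 times that of WT (log2 -0.68, SE 0.23, adjusted p = 0.0306). That call was lost with median-of-ratios scaling (adjusted p = 0.112) and on leaving out any 1 MII library other than KO MII replicate 3 (adjusted p = 0.0413 to 0.11 over the 6 libraries left out in turn).

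Smc2 (ENSMUSG00000028312, chromosome 4, 52439243 to 52488260), its partner in the ATPase pair, was present at much lower levels. WT libraries held 7.04, 4.53 and 4.04 FPKM at GV, 9.82, 15.6 and 5.64 at MI, and 11.9, 9.30 and 7.82 at MII. KO libraries held 10.2, 14.7 and 6.56 FPKM at GV, 8.22, 10.04 and 8.68 at MI, and 6.83, 5.08 and 8.63 at MII. The genotypes overlapped at each stage, with the highest KO GV value in KO GV replicate 2. From GV to MII Smc2 rose in WT (log2 0.79, SE 0.32, adjusted p = 0.0406), a call lost without any 1 of WT GV replicates 2 and 3 and WT MII replicates 1 and 2 (up to 0.144), with no filter (0.107) and with a pseudocount of 5 FPKM (0.0559). In KO the difference was -0.51 (adjusted p = 0.221). Against WT, KO differed by 0.86 at GV (adjusted p = 0.0619), -0.09 at MI and -0.45 at MII, none of which passed.

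Ncapg (ENSMUSG00000015880, chromosome 5, 45669919 to 45700546), a HEAT-repeat subunit gene of condensin I, was lower in every KO library than in every WT library at each of the 3 stages. The genotypes did not overlap for 31%, 35.7% and 50.6% of all genes tested at GV, MI and MII. The share of genes separated at all 3 stages was not computed. WT oocytes held 82.2, 104.0 and 95.1 FPKM at GV, 73.6, 76.5 and 102.4 at MI, and 87.8, 105.4 and 92.7 at MII. KO oocytes held 65.1, 32.5 and 71.3 FPKM at GV, 56.5, 49.5 and 28.8 at MI, and 55.6, 56.6 and 41.0 at MII. The differences between GV and MII were 0.03 in WT and -0.07 in KO on the log2 scale (adjusted p = 0.947 and 0.867). The KO level was 0.534 times that of WT at MI (log2 -0.93, SE 0.29, adjusted p = 0.0337) and 0.536 times at MII (-0.90, SE 0.29, adjusted p = 0.027). At GV the difference was of like size (-0.80, SE 0.29) and missed the threshold (adjusted p = 0.0575). Without KO GV replicate 2, which held the lowest GV value, the GV difference was -0.45 (adjusted p = 0.296), and without KO GV replicate 3 it was -1.0045 (adjusted p = 0.0154). The MI call was lost without WT MI replicate 2 or 3 or KO MI replicate 2 or 3 (up to 0.18), and the MII call without WT MII replicate 2 or 3 or KO MII replicate 3 (up to 0.109). Both were also lost with no filter (0.08 and 0.069) and with median-of-ratios scaling (0.199 and 0.0932), and that at MI with quantile normalization (0.066). Exons of Lcorl, annotated on the opposite strand, cover 13.4% of the exon bases of Ncapg, and the strand of the libraries is not given in the sources used here, so some of these reads could come from Lcorl.

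Ncaph (ENSMUSG00000034906, chromosome 2, 127103809 to 127133954), the kleisin gene of condensin I, went the other way at MII. WT libraries held 29.3, 31.3 and 27.1 FPKM at GV, 30.6, 43.5 and 41.0 at MI, and 36.7, 28.5 and 32.8 at MII. KO libraries held 29.2, 22.0 and 26.9 FPKM at GV, 35.0, 40.9 and 27.0 at MI, and 52.5, 61.2 and 46.4 at MII. All KO MII values exceeded all other values of the gene. Ncaph rose from GV to MII in KO (log2 1.01, SE 0.22, adjusted p = 0.00134), a call kept without any 1 of the 6 libraries compared, and the WT difference was 0.15 (adjusted p = 0.575). KO was 1.63 times WT at MII (log2 0.69, SE 0.22, adjusted p = 0.0237). That call was kept in all 10 other fits of the full set of libraries (up to 0.0473) and lost without WT MII replicate 2 or 3 or KO MII replicate 1 or 2 (up to 0.0938). At GV and MI the KO differences were -0.17 and -0.16 and did not pass.

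Ncapd2 (ENSMUSG00000038252, chromosome 6, 125168007 to 125191701), the other HEAT-repeat subunit gene of condensin I, was low, did not pass the filter and was not tested. Its libraries ranged from 0.191 to 1.46 FPKM, or 17 to 149 reads per library, and 1 of 18 reached 1 FPKM. Group means were 0.344 ± 0.163, 0.672 ± 0.220 and 0.971 ± 0.447 FPKM in WT at GV, MI and MII and 0.499 ± 0.208, 0.655 ± 0.0737 and 0.744 ± 0.0925 in KO (SD, n = 3). The genotypes overlapped at every stage.

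Ncapg2 (ENSMUSG00000042029, chromosome 12, 116405402 to 116463731), the HEAT-repeat subunit gene of condensin II, was the only one of the 4 genes called between genotypes at MII whose call was kept without any 1 MII library. WT libraries held 8.17, 7.36 and 6.77 FPKM at GV, 15.3, 12.7 and 9.91 at MI, and 17.9, 19.6 and 18.9 at MII. KO libraries held 8.21, 7.10 and 5.69 FPKM at GV, 9.95, 7.03 and 9.69 at MI, and 11.7, 9.51 and 10.7 at MII. The genotypes overlapped at GV, overlapped at MI through 1 KO library at 9.95, and were wide apart at MII. From GV to MII Ncapg2 rose 2.53-fold in WT (log2 1.23, SE 0.21, adjusted p = 9.75e-05) and 1.52-fold in KO (0.55, SE 0.21, adjusted p = 0.0494). The KO call was lost without any 1 library compared except KO GV replicate 1 (up to 0.153), with only the groups compared (0.164) and with a pseudocount of 5 FPKM (0.0518). KO was 0.566 times WT at MII (log2 -0.77, SE 0.21, adjusted p = 0.0105), with adjusted p from 0.0203 to 0.0431 on leaving out each MII library. At MI the difference was -0.46 (adjusted p = 0.15).

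Ncapd3 (ENSMUSG00000035024, chromosome 9, 27030175 to 27095315), the second HEAT-repeat subunit gene of condensin II, differed little between genotypes. WT libraries held 6.29, 7.27 and 3.38 FPKM at GV, 7.70, 7.70 and 5.94 at MI, and 8.72, 8.03 and 8.96 at MII. KO libraries held 6.48, 5.11 and 4.14 FPKM at GV, 5.39, 5.63 and 6.51 at MI, and 8.22, 6.57 and 8.05 at MII. The genotypes overlapped at each stage, with log2 differences of -0.06, -0.24 and -0.16 that did not pass (adjusted p = 0.886, 0.534 and 0.671). From GV to MII the gene rose in WT (0.58, SE 0.24, adjusted p = 0.0438), and the KO difference was 0.48 (adjusted p = 0.124). The KO difference was called with median-of-ratios scaling and with quantile normalization (lowest adjusted p = 0.00534). The WT call was lost without WT GV replicate 3, which held the lowest value (log2 0.30, adjusted p = 0.277), without any 1 WT MII replicate (up to 0.106), with no filter (0.0687) and with only the groups compared (0.0606).

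Ncaph2 (ENSMUSG00000008690, chromosome 15, 89355719 to 89372826), the kleisin gene of condensin II, fell during maturation in both genotypes. WT libraries held 2.98, 3.02 and 1.96 FPKM at GV, 2.74, 3.63 and 3.33 at MI, and 1.102, 0.738 and 0.630 at MII. KO libraries held 3.83, 5.58 and 2.34 FPKM at GV, 2.18, 3.20 and 1.385 at MI, and 1.24, 1.09 and 1.49 at MII. In both genotypes every MII library was below every GV library. From GV to MII Ncaph2 fell by 0.997 on the log2 scale in WT (SE 0.25, adjusted p = 0.00272) and by 1.06 in KO (SE 0.25, adjusted p = 0.00276), and neither call was lost without any 1 library compared. The mean FPKM at MII was 0.31 times that at GV in WT and 0.325 times in KO, a larger fall than on the log2(FPKM + 1) scale. The genotypes overlapped at each stage, with differences of 0.39, -0.41 and 0.32 that did not pass. Its MII values rest on 43 to 102 reads per library, and exons of Sco2 and Tymp on the opposite strand cover 19.7% of its exon bases.

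Between GV and MII, 5 of 7 genes tested changed in WT oocytes, where Smc2, Smc4, Ncapd3 and Ncapg2 rose and Ncaph2 fell. The share of 71.4% compares with 57.7% of all genes tested (4 of 7 higher against 28.9%, 1 of 7 lower against 28.8%), and the median log2 difference of 0.58 with 0.09. In KO oocytes 3 of 7 changed (42.9%, against 37.2% of all genes tested, 11.9% higher and 25.4% lower): Ncaph and Ncapg2 rose and Ncaph2 fell, with a median of 0.01 against -0.07. The WT count was 3 without WT GV replicate 3 or WT MII replicate 1 or 2, where Ncapg2, Ncaph2 and Smc4 were called. The GV and MII libraries did not overlap for 5 of 7 genes in WT, against 69.7% of all genes tested, and for 4 of 7 in KO (Ncaph, Ncapd3, Ncapg2 and Ncaph2), against 43.5%. With no filter Ncapd2 was also called in WT (log2 0.54, adjusted p = 0.0359), with group means of 0.344 FPKM at GV and 0.971 at MII. The KO and WT comparisons at MII share their MII libraries with these stage comparisons.

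**Figure D3:**
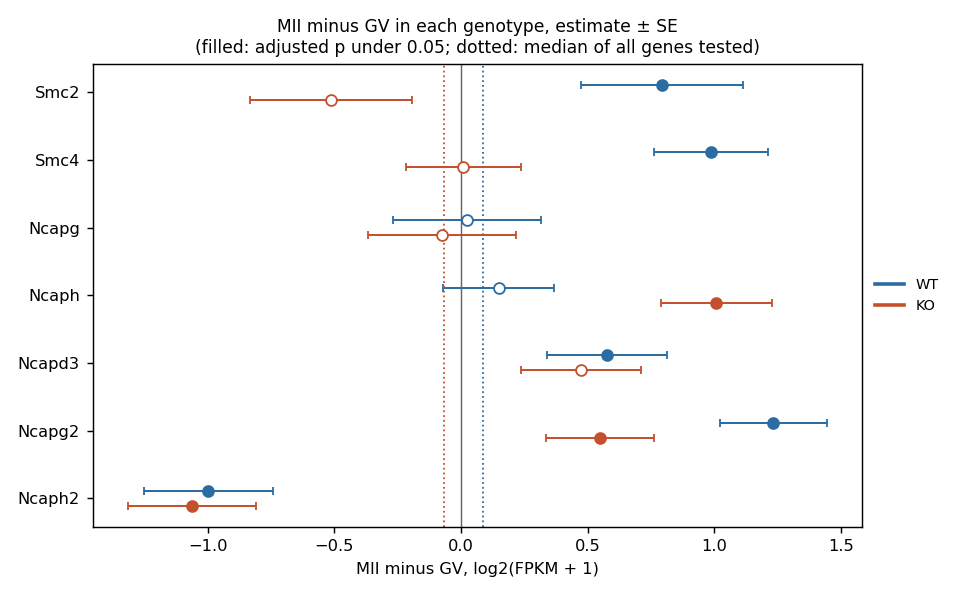
Difference MII minus GV on the log2(FPKM + 1) scale (horizontal axis) in WT and KO for the 7 tested condensin genes, with standard errors; filled symbols passed an adjusted p of 0.05 and dotted lines are the medians of all genes tested. Ncaph2 lies near -1 in both genotypes, Smc4 at 0.99 in WT and 0.01 in KO, and Ncaph at 0.15 in WT and 1.01 in KO.

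The difference between genotypes in the change from GV to MII was tested directly and passed for 0 of 7 condensin genes, against 5.61% of all genes tested, with 4 at an unadjusted p under 0.05 and 0 called by voom. The estimates were -0.98 for Smc4 (SE 0.32, adjusted p = 0.0718), -1.31 for Smc2 (adjusted p = 0.0829), 0.86 for Ncaph (adjusted p = 0.0924) and -0.68 for Ncapg2 (adjusted p = 0.147). Smc2 was called with median-of-ratios scaling and Smc4 with TPM scaling. With median-of-ratios scaling the estimates of Smc4 and Ncapg2 were -0.65 and -0.40 (adjusted p = 0.315 and 0.354). Smc2 and Smc4 were both called with quantile normalization and without KO GV replicate 3. That Smc4 rose in WT and Ncaph in KO is therefore not shown to differ between the genotypes at this threshold.

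At GV, 0 of 7 condensin genes passed between the genotypes, against 20.8% of all genes tested, with 2 at an unadjusted p under 0.05 (Smc2 and Ncapg) and 0 called by voom. Without KO GV replicate 3 the count was 3 (Ncapg lower, Smc2 and Ncaph2 higher), and without KO GV replicate 2 it was 0. The genotypes did not overlap for 2 of 7 genes at GV (Smc4 and Ncapg), against 31% of all genes tested. At MI 1 of 7 passed and did not overlap (Ncapg, lower in KO), against 17.3% of all genes tested that passed, 13.7% that were lower and 35.7% that did not overlap. The median of all genes at GV moved from 0.17 to -0.04 with median-of-ratios scaling, and at MI from -0.13 to 0.02; with this scaling Ncapg was called at GV (log2 -1.09, adjusted p = 0.0488) and not at MI (-0.73). From GV to MI, 0 of 7 passed in WT, against 4.82% of all genes tested, and 0 of 7 in KO, against 13%, with 3 and 1 at an unadjusted p under 0.05 and 0 called by voom in either. In WT the largest of these estimates were 0.80 for Smc2, 0.68 for Ncapg2 and 0.58 for Smc4. The difference between genotypes in the change from GV to MI passed for 0 of 7, against 0.0775%, with 2 at an unadjusted p under 0.05 and 0 called by voom.

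Ratios within a library show how the subunit mRNAs stood to each other, and were chosen after the values were seen, so they carry no test. The exon lengths used enter each ratio between genes, so its size is rough. Smc4 exceeded Smc2 by 13.4-fold to 51.8-fold over the 18 libraries (median 29.8). These are mRNA ratios, and the levels of the 2 paired proteins were not measured. Ncapg exceeded Ncaph by 2.39-fold to 3.70-fold in WT MII, whereas in KO MII the ratio was 0.883 to 1.06. At MI it was 1.76 to 2.50 in WT and 1.07 to 1.61 in KO, and at GV 2.81 to 3.51 in WT and 1.47 to 2.65 in KO, so the genotypes did not overlap at any stage. Between the kleisins, Ncaph exceeded Ncaph2 by 9.84-fold to 13.8-fold in WT GV and 33.3-fold to 52.0-fold in WT MII, and by 3.95-fold to 11.5-fold and 31.2-fold to 56.1-fold in KO. The sum of Ncapd3, Ncapg2 and Ncaph2 was 27.8 to 28.5 FPKM in WT MII and 17.2 to 21.2 in KO MII, and that of Ncapd2, Ncapg and Ncaph 125.0 to 134.8 and 88.1 to 118.5.

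**Figure D4:**
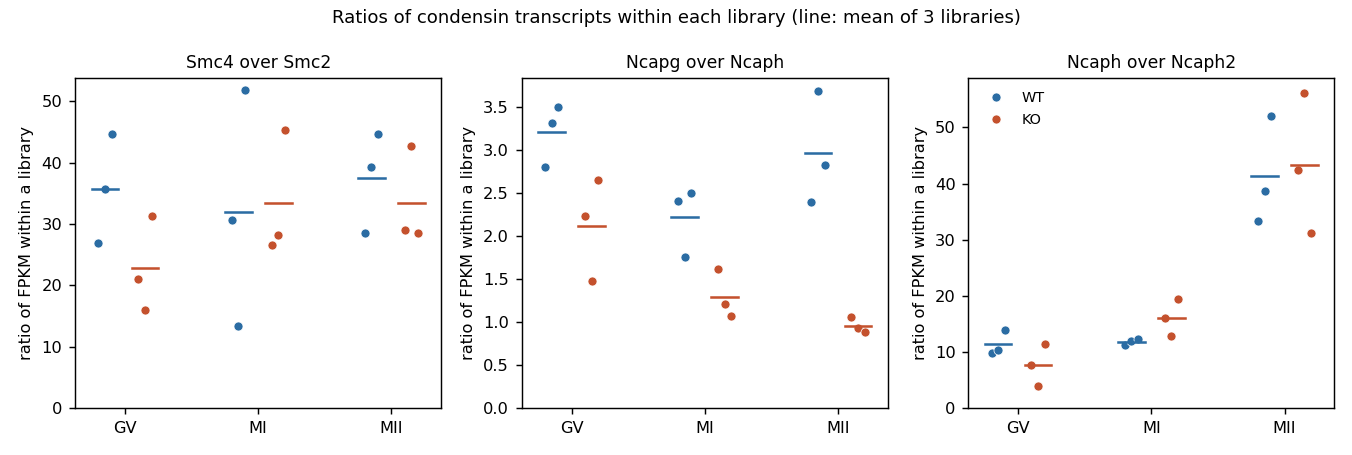
Ratio of FPKM within each library (vertical axes, from 0) for the ATPase pair, for 2 subunits of condensin I and for the 2 kleisins, by stage and genotype; points are libraries and lines means of 3. Ncapg over Ncaph is 2.39 to 3.70 in WT MII and 0.883 to 1.06 in KO MII, while Ncaph over Ncaph2 is higher at MII than at GV in both genotypes.

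Genes that act on condensin or share the chromosome axis were followed as a list of 31 (kinases, phosphatases, topoisomerase II, the chromosomal passenger complex, KIF4, MCPH1 and others), all of them tested. At an adjusted p of 0.05, 1 passed as higher and 2 as lower in KO at GV, against 20.8% of all genes tested that passed. At MI 1 passed as higher and 1 as lower, against 17.3%. At MII 2 passed as higher and 8 as lower, against 14.9% and 13.8% of all genes tested. The median log2 differences were 0.36, -0.03 and -0.14, against 0.17, -0.13 and 0.01 for all genes tested. Birc5, Kmt5a and Ccnb1 were among the 4 with the smallest p. Birc5, or survivin, of the passenger complex stood at 118.7 ± 9.96 FPKM in WT MII and 603.1 ± 154 in KO MII (log2 2.30, adjusted p = 1.01e-06). Kmt5a, the H4K20 monomethyltransferase gene, stood at 2.94 ± 1.03 FPKM in WT MII and 0.847 ± 0.304 in KO MII (log2 -1.08, adjusted p = 0.00356). Ccnb1, or cyclin B1, the partner of the kinase that phosphorylates condensins, passed at GV, with 461.8 ± 65.2 FPKM in WT and 198.3 ± 119 in KO (-1.43, adjusted p = 0.0106; SD, n = 3 throughout).

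Of the 20 genes of the other SMC complexes, cohesin and SMC5/6, 17 were tested. At the same threshold 3 passed at GV, each higher in KO, against 20.8% of all genes tested that passed. At MI 1 passed as higher and 4 as lower, against 17.3%, and at MII 2 passed as higher and 7 as lower, against 14.9% and 13.8%. The median log2 differences of the 17 genes were 0.04, -0.02 and -0.58 at GV, MI and MII, against 0.17, -0.13 and 0.01 for all genes tested. The SMC5/6 genes Nsmce3 and Smc5 stood at 8.44 ± 0.983 and 6.90 ± 0.724 FPKM in WT MII and at 1.499 ± 0.831 and 1.87 ± 0.431 in KO MII (log2 -1.96 and -1.47, adjusted p = 7.82e-05 and 0.000325). The cohesin ATPase gene Smc1a was higher in KO at GV, with 5.46 ± 1.02 FPKM in WT and 14.999 ± 4.51 in KO (log2 1.28, adjusted p = 0.00161). The cohesin subunit gene Stag2 stood at 6.82 ± 0.748 and 2.08 ± 0.612 FPKM in WT and KO MII (-1.36, adjusted p = 0.00136).

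Across the 18 libraries the condensin genes did not share one pattern. The highest Pearson r of log2(FPKM + 1) between 2 members was 0.791, for Ncapd3 and Ncapg2, and the lowest -0.613, for Ncapg2 and Ncaph2; these values describe libraries that share 6 group means. Among about 3950 protein-coding genes with a mean of at least 5 FPKM, those most like Ncapg2 were Tbl1xr1 and Brca2 (r = 0.975 and 0.972). Ubxn4 and Supt16 were most like Smc4 (0.908 and 0.87), Ift74 and Pafah1b1 most like Smc2 (0.874 and 0.854), and Dennd6a and Cnn3 most like Ncapg (0.9 and 0.899). For Ncaph they were Adgre4 and Tubg1 (0.932 and 0.901), for Ncapd3 Prickle1 and Pan2 (0.934 and 0.91) and for Ncaph2 Psmb5 and Prkag1 (0.948 and 0.943).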

How the data were processed

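RNA of 18 libraries was deposited as 1 table of FPKM values computed by the authors, with no pooled columns. The build mm10 and the tool DESeq2 1.38.3 appear in the submitters' processing notes, with no step attached. Aligner, counter, annotation and strand: not given in the sources used here. Of 27874 gene identifiers, 27774 were given a symbol from GENCODE vM21. FPKM times exon length came out as whole reads, within 0.05 read, for 92.8% to 93.3% of nonzero values, and for all 8 condensin genes, which gave the read counts quoted. The protocols in the labels name no molecular identifiers, so PCR copies may be counted as separate reads.

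log2(FPKM + 1) was fitted with limma 3.58.1 (R 4.3.3) as 6 group means over all 18 libraries with a variance trend, for genes reaching 1 FPKM in 3 or more libraries. P-values are two-sided and Benjamini-Hochberg adjusted over all 10320 genes within each comparison. No scaling between libraries was added. Fold changes on this scale understate low genes. Ratios of levels are of mean FPKM. The code of the fit was checked on simulated data with independent noise and a limited set of changed genes. Those data lacked the stage differences of these libraries, so the check bears on the code only. Python 3.11.15, pandas 2.3.3 and matplotlib 3.10.9 were used for tables and figures.

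The condensin genes and the lists were chosen with earlier results of these data known. Named genes were Lsm14b, the 8 condensin genes, the 4 members of each related list with the smallest p in any KO against WT comparison (1 of them is not reported here), and the 2 genes most like each tested condensin gene among protein-coding genes with a mean of at least 5 FPKM, without predicted genes. The length of the window at the 3′ ends was set after seeing the annotation of Smc4. Alternatives were other pseudocounts, filters, scalings, a fit of only the groups compared, the replicate number as a block, voom on recovered reads, and leaving out each library.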

Additional observations from a re-analysis of the deposited data

How the results depend on the processing

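Counts of condensin genes called were as follows. KO against WT at GV gave 0 as reported and 1 with median-of-ratios scaling and with quantile normalization, and 0 to 3 without 1 library. KO against WT at MI gave 1 as reported and 0 with no filter, with median-of-ratios scaling and with quantile normalization, and 0 to 1 without 1 library. KO against WT at MII gave 4 as reported, 3 with no filter, 2 with median-of-ratios scaling and 1 to 3 without 1 library. WT MI against GV gave 0, 1 with a filter at 5 FPKM (Ncapg2) and 0 to 2 without 1 library (2 without WT MI replicate 3). WT MII against GV gave 5, and 3 to 5 without 1 library. It gave 4 with a pseudocount of 5 FPKM, with either other filter setting and with only the groups compared. KO MII against GV gave 3, and 2 to 3 without 1 library. It gave 4 with median-of-ratios scaling and with quantile normalization. With a pseudocount of 5 FPKM, a filter at 5 FPKM or only the groups compared it gave 2. KO MI against GV gave 0, and 0 to 1 without 1 library (1 without KO GV replicate 3). The genotype difference in the GV to MII change gave 0, then 1 with median-of-ratios and with TPM scaling, 2 with quantile normalization and 0 to 2 without 1 library. That in the GV to MI change gave 0 throughout. Of the estimates printed for single genes, those that changed sign were not called in any fit. Between genotypes they were Ncapd3 at GV (0.0005 with TPM scaling, -0.33 to 0.13 without 1 library), Ncapg2 at GV (-0.19 to 0.0378 without 1 library), Smc2 at MI (0.0944 and 0.0678 with median-of-ratios and quantile scaling, -0.43 to 0.23 without 1 library), Smc4 at MI (-0.0863 to 0.34 without 1 library) and Ncaph at MI (0.0332 with median-of-ratios scaling). Between GV and MII they were Ncapg in WT (-0.09 to 0.36 over all alternatives) and KO (-0.42 to 0.13), and Smc4 in KO (-0.07 to 0.22). The cause was not tested. With the replicate block the counts were 0, 1 and 4 for KO against WT at GV, MI and MII, 5 and 3 for MII against GV in WT and KO, and 0 for the others, the same as without it. Same-numbered libraries of different groups deviated together in 15 of 45 pairs (r over 0.1), against 33 of 90 for other numbers. The median r was -0.05, against 0.05 for other numbers. Deviations were taken from group means of 3 libraries, so the 2 kinds of pairs are not independent and cannot decide on pairing. The labels do not say what the numbers mark, and the numbers were not taken as pairs. The filter at 5 FPKM removed Ncaph2, and no filter added Ncapd2, which was then called in WT MII against GV (adjusted p = 0.0359) and in none of the other comparisons. The number of all genes called at GV ranged from 302 (only the groups compared) to 4130 (without KO GV replicate 3), against 2146 as reported, so adjusted p at GV moves with single libraries. Depth limits Ncapd2 and, at MII, Ncaph2.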
